A study of Mus musculus with 11 samples.

Results

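The 10 genes described here encode the transcription factors that set T cell lineage and effector programs: Tbx21, Eomes, Id2, Id3, Runx3, Zbtb16, Gata3, Tcf7, Lef1 and Bcl11b. They were taken by name, and each matched 1 of the 52550 genes in the table. All 10 were among the 14419 genes with a CPM (reads scaled to the same library total) above 1 in at least 2 libraries, although Tbx21, Eomes and Runx3 passed in the 5 DETC libraries only, and Lef1 in 3 WT DETC and 2 KC libraries. Their levels were compared between dendritic epidermal T cells (DETCs) and keratinocytes (KCs), and between mice with and without Langerhans cells (LCs).

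Poly-A RNA of KCs and DETCs sorted from flank epidermis was sequenced. The mice were 8 weeks old and, per the labels, female. The LC-/- mice carried huLangerin-DTA, in which the human langerin promoter drives diphtheria toxin subunit A, so that LCs are missing from birth. In the labels these mice are DTA, and their controls are WT littermates. The groups were WT KCs (3 libraries), LC-/- KCs (3), WT DETCs (3) and LC-/- DETCs (2). Both populations were sorted as MHC-II-, langerin- and c-kit- cells, KCs as CD45- and DETCs as CD45+, so other CD45+ cells could enter the DETC gate. Libraries are named W1 to W3 (WT) and L1 to L3 (LC-/-) in the order of the number in the sample label, and there was no DETC library of L1. The labels do not state whether libraries with the same number came from the same animal. p-values measure the spread between these libraries.

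DETCs are γ/δ T cells with an invariant receptor that leave the fetal thymus early and stay in the mouse epidermis for life. T-bet (Tbx21) and Eomes drive type 1 effector genes, and Runx3 drives the cytotoxic and tissue-resident program. TCF-1 (Tcf7) and LEF-1 act downstream of Wnt signaling, and BCL11B commits thymic precursors to the T cell lineage. GATA3 serves early T cell development and type 2 responses, PLZF (Zbtb16) drives innate-like T cells, and ID2 and ID3 hold E proteins in check. Several of these factors also work in skin epithelium, where GATA3 and BCL11B take part in epidermal and hair follicle differentiation.

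Libraries held 13491075 to 19750440 reads on genes, and a count of 0 allowed up to 3 reads, which covers counting error only. Values are normalized counts, the reads of a gene divided by a size factor of its library. The T cell label of the DETC libraries held. Cd3e lay between 24602 and 27726 in them and between 0 and 10.5 in KCs. All 18 genes of a γ/δ T cell list were higher in WT DETCs. That direction was set beforehand for those, such as Cd3e, that passed the filter through DETC libraries alone. Keratinocyte transcripts were also present. Krt14 lay between 10581 and 19763 in DETC libraries, and from 30 keratinocyte genes the keratinocyte share of their RNA was estimated at 15.3%, 15.1% and 18.8% in W1 to W3, 25.0% in L2 and 16.4% in L3. Each share is a median, and single genes differed widely around it. In the W2 DETC library, Krt79 had 634 counts against 9143 to 10426 in WT KCs, and Sbsn had 4922 against 6706 to 8218. Markers of α/β T cells were detected as well, with Cd8a between 378 and 2825 in DETC libraries. In these bulk samples, fewer cells of a type and less RNA per cell cannot be told apart.

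All 10 factors differed between WT DETCs and WT KCs. Of the 10, 7 were higher in DETCs and 3 were lower (limma, Benjamini-Hochberg adjusted p under 0.05), while 41.0% of all tested genes were called higher and 35.1% lower. The median log2 difference was 2.75 over the 10 factors and 0.07 over all tested genes. DETC and KC libraries of WT mice did not overlap for any of the 10. Per kilobase of exon, Tcf7 led in WT DETCs with a mean level of 2519 normalized counts, followed by Id2 (2006), Runx3 (1618), Tbx21 (957), Gata3 (855), Bcl11b (476), Id3 (302), Zbtb16 (115), Eomes (10.2) and Lef1 (3.40). The ranges over the 3 libraries overlapped between the neighbours Tbx21 and Gata3 and were apart for every other pair of neighbours. In WT KCs the per-kilobase order was led by Gata3 (1534), Id3 (1123) and Zbtb16 (536), and Eomes was last at 0.29.

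**Figure D1:**
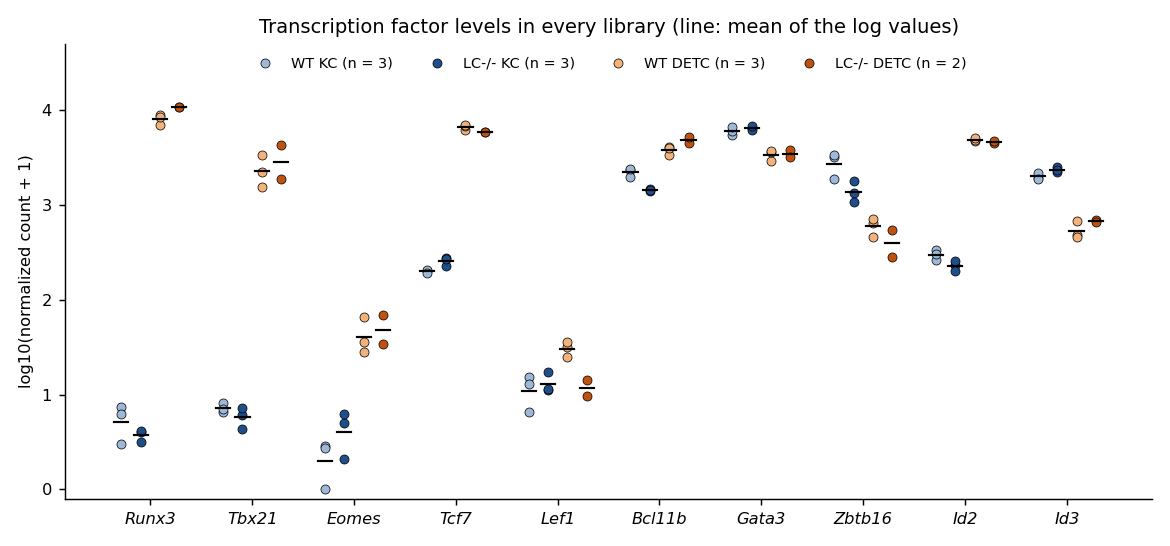
Levels of the 10 factors in all 11 libraries, as log10 of the normalized count plus 1 (vertical axis), with each point a library and each line the mean of the log values in a group. Runx3 and Tbx21 lie near the bottom in all 6 KC libraries and at 1542 normalized counts or more in all 5 DETC libraries, while Gata3, Zbtb16 and Id3 lie higher in KCs.

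Runx3 (chromosome 4, 135120652 to 135177990, plus strand) had the largest difference of the 10. It reached 7000, 8822 and 8458 normalized counts in WT DETCs against 2.05, 6.49 and 5.19 in WT KCs. The mean was 8094 ± 964 (SD, n = 3) in DETCs, 1769-fold that of KCs, where the 3 libraries held 15 reads in all (95% counting interval of the fold 1072 to 3160). The log2 difference was 10.59 ± 0.29 (SE; limma adjusted p = 1.59e-09). Tbx21 (chromosome 11, 97098071 to 97115331, minus strand) had 1542, 3368 and 2231 counts in WT DETCs and 7.17, 5.57 and 6.05 in WT KCs, a 380-fold difference in means (interval 246 to 622; log2 difference 8.29 ± 0.25, limma adjusted p = 3.25e-09). The lowest DETC library was far above the highest KC library for both genes. Eomes (chromosome 9, 118478212 to 118486132, plus strand), the T-box paralog of Tbx21, stayed low: 34.9, 27.2 and 65.2 counts in WT DETCs and 0, 1.86 and 1.73 in WT KCs. The difference in log2 was 4.36 ± 0.50 (limma adjusted p = 3.02e-05), and it rests on 4 reads in KCs.

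The RefSeq promoter table matched 9 of the 10 genes, all but Zbtb16. For Runx3 and Tbx21, the factors with the largest differences from KCs, and for Bcl11b, whose genotype difference differed between the populations (below 0 in KCs and above 0 in DETCs), the 250 bases before the start are shown (GRCm38.p6, 5′ to 3′ on the strand of the gene). Capitals mark 4 short motifs, searched on both strands. RUNX proteins bind the letters TGTGGT. The TCF and LEF proteins, which work with β-catenin, bind CTTTGA. The zinc fingers of GATA proteins read AGATAA, and T-box proteins such as T-bet and Eomes read the letters GGTGTG.
Runx3, first start, chr4:135120395-135120644, plus strand: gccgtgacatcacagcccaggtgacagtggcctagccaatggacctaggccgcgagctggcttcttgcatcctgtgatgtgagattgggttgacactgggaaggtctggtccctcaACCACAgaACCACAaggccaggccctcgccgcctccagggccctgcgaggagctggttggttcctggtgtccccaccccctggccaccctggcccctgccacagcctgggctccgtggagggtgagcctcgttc
Runx3, second start, chr4:135152295-135152544, plus strand: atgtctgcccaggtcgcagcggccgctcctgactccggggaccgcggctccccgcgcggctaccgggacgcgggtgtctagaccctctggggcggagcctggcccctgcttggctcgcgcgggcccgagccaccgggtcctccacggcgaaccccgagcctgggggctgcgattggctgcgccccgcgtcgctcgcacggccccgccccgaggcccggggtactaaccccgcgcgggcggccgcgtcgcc
Tbx21, chr11:97115332-97115581, minus strand: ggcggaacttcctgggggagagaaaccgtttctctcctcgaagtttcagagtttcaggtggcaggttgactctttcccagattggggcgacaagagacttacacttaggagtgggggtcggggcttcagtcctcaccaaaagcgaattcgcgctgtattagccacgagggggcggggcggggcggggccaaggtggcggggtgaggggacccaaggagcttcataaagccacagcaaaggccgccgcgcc
Bcl11b, chr12:108003415-108003664, minus strand: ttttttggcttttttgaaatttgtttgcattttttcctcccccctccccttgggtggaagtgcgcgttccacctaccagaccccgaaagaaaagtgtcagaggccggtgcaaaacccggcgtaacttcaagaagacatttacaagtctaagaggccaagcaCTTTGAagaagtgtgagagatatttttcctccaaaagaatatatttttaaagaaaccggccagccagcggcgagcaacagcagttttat
The first Runx3 start had 2 RUNX matches, beginning 134 and 126 bases before it, and Bcl11b had 1 TCF/LEF match, 89 bases before its start. In GENCODE M21 the Bcl11b gene reaches up to 108003602 on the minus strand. Most of the printed Bcl11b stretch, with the match, therefore lies inside the gene as annotated there. No capitals fell in the stretch of Tbx21 or of the second Runx3 start. Over windows from 250 bases before to 50 after each start, RUNX letters were held by 16.8% of 32851 RefSeq promoters, TCF/LEF letters by 16.0%, GATA letters by 11.2% and T-box letters by 19.0%. In the same windows GC content was 63.7% and 77.3% for the Runx3 starts, 62.0% for Tbx21 and 43.0% for Bcl11b, against a median of 52.7%. Both Runx3 starts lie within 1 gene, and the gene-level counts do not separate their transcripts.

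Tcf7 (chromosome 11, 52252371 to 52283014, minus strand) held 6126, 6776 and 6938 counts in WT DETCs and 202, 206 and 191 in WT KCs, 33.1-fold higher in means (log2 difference 5.04 ± 0.07, limma adjusted p = 6.35e-11). Its close relative Lef1 (chromosome 3, 131110471 to 131224356, plus strand) was near the detection limit, with 24.0, 30.5 and 35.0 counts in WT DETCs and 14.3, 5.57 and 12.1 in WT KCs. The Lef1 difference of 1.48 ± 0.36 in log2 (limma adjusted p = 0.00437) lost its call with quantile normalization (0.81, adjusted p = 0.0509). That normalization moved the median log2 difference of all genes to -0.24 and the higher calls from 53.9% to 41.3%. Bcl11b (chromosome 12, 107910403 to 108003602, minus strand) was high in both populations, at 3394, 4145 and 4049 counts in WT DETCs and 2361, 1964 and 2396 in WT KCs. The log2 difference was 0.79 ± 0.10 (limma adjusted p = 8.47e-05).

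Id2 (chromosome 12, 25093799 to 25097140, minus strand) was 16.3-fold higher in WT DETCs, with 4711, 4862 and 5097 counts against 263, 338 and 301 in WT KCs (log2 difference 4.03 ± 0.09, limma adjusted p = 6.24e-10). Its paralog Id3 (chromosome 4, 136143497 to 136145755, plus strand) went the other way, with 488, 463 and 672 counts in WT DETCs and 1940, 2200 and 1891 in WT KCs (log2 difference -1.91 ± 0.13, limma adjusted p = 8.64e-07). The 2 inhibitors of E proteins thus had opposite signs between the same libraries. Zbtb16 (chromosome 9, 48654297 to 48836222, minus strand) was 4.67-fold lower in means, with 650.4, 457 and 714 counts in WT DETCs and 3218, 1875 and 3403 in WT KCs (log2 difference -2.20 ± 0.23, limma adjusted p = 1.61e-05). Gata3 (chromosome 2, 9857078 to 9890034, minus strand) held 2891, 3624 and 3687 counts in WT DETCs and 5546, 6021 and 6740 in WT KCs (log2 difference -0.85 ± 0.11, limma adjusted p = 7.90e-05). Genes that overlap a member on the chromosome, 9 in all, reached at most 62.1 counts in KCs and 35.9 in DETCs, and the strand setting of the counting was not given in the sources used here.

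For the 3 factors that were lower in DETCs, much of the DETC value was of the size that the keratinocyte share would bring. The share of each DETC library times the mean KC level of its genotype came to 56.2% to 85.6% of the Id3 value, 64.0% to 93.7% of the Zbtb16 value and 25.5% to 43.2% of the Gata3 value. It came to 4.46% to 10.4% for Bcl11b, 5.29% to 35.4% for Lef1 and at most 2.63% for Eomes. For Runx3, Tbx21, Tcf7 and Id2 it was at most 1.25%. With that share subtracted from the DETC libraries, all 10 differences kept their sign and their call. For the 3 lower factors the sign could not turn, because the subtraction only lowers the DETC values. The log2 differences then were -3.30 for Id3, -4.70 for Zbtb16 and -1.36 for Gata3 (limma adjusted p = 2.11e-05, 0.00135 and 0.000141).

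**Figure D2:**
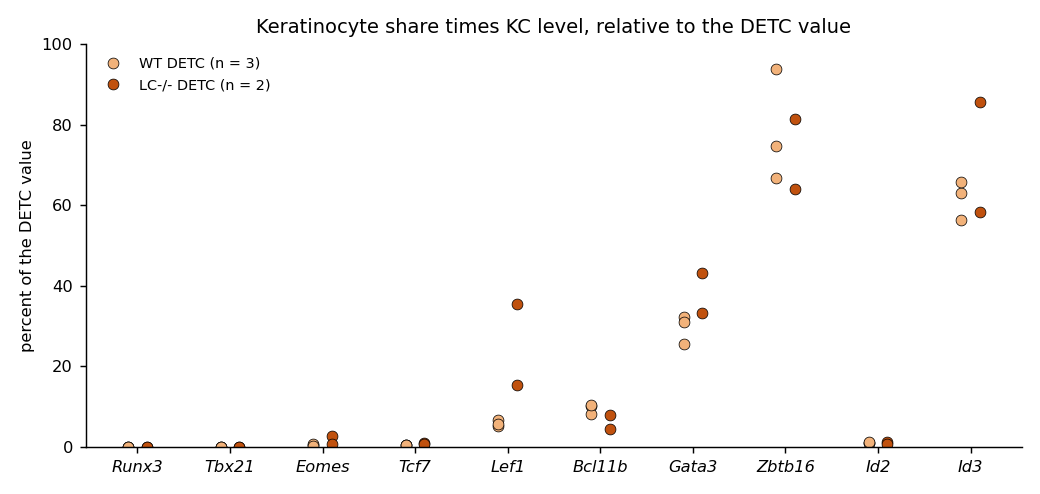
Estimated keratinocyte share of each DETC library times the mean KC level of the same genotype, as a percent of the value in that library (vertical axis, 0 to 100), for each of the 10 factors. Zbtb16 and Id3 lie at 56.2% or above in all 5 libraries, Gata3 between 25.5% and 43.2%, and Runx3, Tbx21, Tcf7 and Id2 at 1.25% or below.

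Partners of these factors differed in both directions between WT DETCs and WT KCs. Of 18 tested partners (E proteins, other ID, RUNX, TCF and GATA cofactors and relatives), 6 were higher and 11 lower. Runx2, a relative of Runx3, had mean levels of 3695 in DETCs and 51.5 in KCs (log2 difference 6.15), and Tle4, a corepressor that binds TCF factors, was higher by 0.73. Bcl11a, the paralog of Bcl11b, was lower (-2.84), as was Tcf7l2 (-2.32), the main TCF relative of epithelia. Of 28 other lineage factors 14 were higher and 12 lower, among them Ikzf1 (means of 14206 and 2.37), Ikzf3 (3358, with no reads in WT KCs), Hes1 (-2.68) and Sox4 (-2.10). All 18 genes of a type 1 and cytotoxic list were higher, including Il2rb (mean 38500.5) and Itgae (23662), which encodes the integrin chain that binds E-cadherin. All 11 tested type 2 genes were higher, including Icos (8483) and Il13 (2066). Il4, also on that list, failed the filter, at 5.46 counts or below in every library. Of 12 genes tied to TCF-1 and naive or memory T cells, 11 were higher, including Cd28 (2918) and Il7r (1731), and Dapl1 was lower (-1.99). These lists name genes of T cells in general, and 41.0% of all genes were called higher in this comparison. Many of their genes, such as Ifng and Icos with 0 counts in every KC library, passed the filter through DETC libraries alone. For those genes the direction was set beforehand.

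The loss of LCs was then examined within DETCs. None of the 10 factors was called between LC-/- and WT DETCs by limma, where 3.13% of tested genes were called higher and 0.430% lower. Before adjustment 3 had a p under 0.05 (Lef1, Runx3 and Bcl11b). DESeq2, which gave no adjusted p for Lef1 and Eomes, called 1, Runx3, and edgeR called 0, each with 4 at an unadjusted p under 0.05. In 4 of the 10 the genotypes did not overlap, 2 higher and 2 lower in LC-/- DETCs, against 37.9% of all tested genes in either direction. The median log2 difference was 0.15 over the 10 and 0.02 over all tested genes. Of the 30 keratinocyte genes 26 had a positive difference in the same comparison (limma, 0 called, 8 at an unadjusted p under 0.05).

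Runx3 was higher in both LC-/- DETC libraries than in any WT library, at 10755 and 10969 counts against 7000 to 8822. The log2 difference was 0.43 ± 0.12 (95% interval 0.16 to 0.71, limma adjusted p = 0.0958, DESeq2 adjusted p = 0.0166). Bcl11b followed the same order of groups, with 4470 and 5273 counts in LC-/- DETCs and 3394 to 4145 in WT DETCs (log2 difference 0.34, interval 0.06 to 0.61, limma adjusted p = 0.179). Lef1 had 8.74 and 13.3 counts in LC-/- DETCs, below the 24.0 to 35.0 of WT DETCs (log2 difference -1.37 ± 0.36, interval -2.20 to -0.55, limma adjusted p = 0.0820). These are few reads, and the LC-/- DETC values fell in the range of the 6 KC libraries (5.57 to 16.5). Tcf7 was lower in both LC-/- libraries, 5899 and 5957 against 6126 to 6938, by a small amount (log2 difference -0.16, interval -0.37 to 0.06, limma adjusted p = 0.412). With quantile normalization this difference was -0.38 and was called (adjusted p = 0.0458).

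The other 6 factors overlapped between the genotypes in DETCs. Id2 had 4550 and 4800 counts in LC-/- DETCs and 4711 to 5097 in WT DETCs, and the interval of its log2 difference, -0.26 to 0.13, was the narrowest of the 10. Gata3 had 3786 and 3226 counts against 2891 to 3687 (log2 difference 0.05, interval -0.25 to 0.35), and its sign turned with quantile normalization. Zbtb16 had 549.5 and 283 counts against 457 to 714 (-0.60, interval -1.25 to 0.06). Id3 had 691 and 665 counts against 463 to 672 (0.34, interval -0.03 to 0.72), and its difference turned to -0.29 with the keratinocyte share subtracted, which was highest in L2. The part of that share in the Id3, Zbtb16 and Gata3 values was not tested further. Eomes had 33.0 and 68.6 counts against 27.2 to 65.2 (0.26, interval -0.76 to 1.28).

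**Figure D3:**
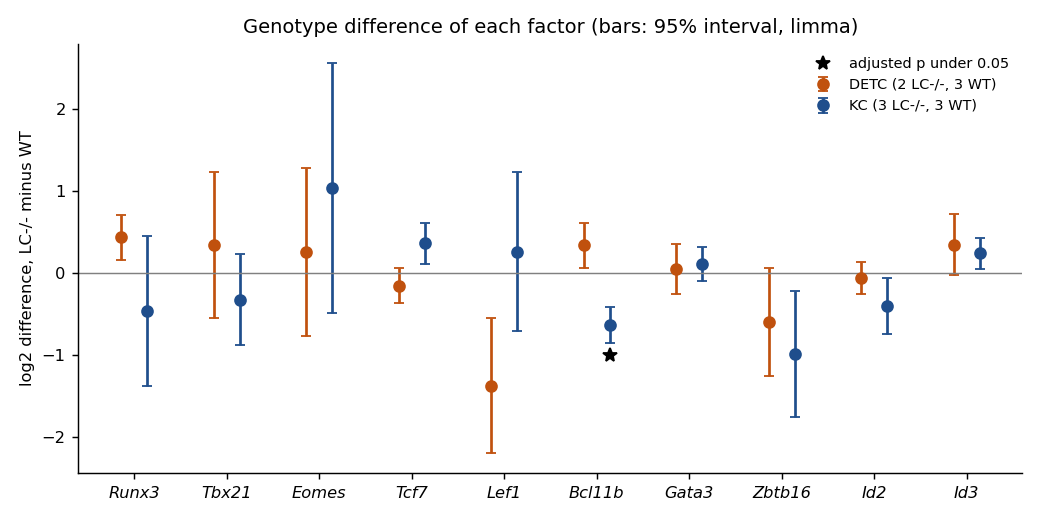
Log2 difference of each factor between LC-/- and WT libraries (vertical axis) in DETCs and in KCs, with 95% intervals from limma; the star marks an adjusted p under 0.05. Bcl11b in KCs (-0.64) carries the 1 star, and the interval of Lef1 in DETCs (-2.20 to -0.55) and that of Runx3 (0.16 to 0.71) lie off 0 without passing the adjustment.

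Tbx21 varied more between DETC libraries than between the genotypes. It had 1905 and 4304 counts in L2 and L3 and 1542, 3368 and 2231 in W1 to W3, a 2.79-fold range (log2 difference 0.34, interval -0.54 to 1.22, limma adjusted p = 0.685). From low to high the libraries were W1, L2, W3, W2 and L3. Of the 18 type 1 and cytotoxic genes 1 had the same order, Gzmb, which encodes granzyme B (204 to 1053 counts). The order of Ifng was held by 3 of them, which were Ifng itself, Fasl and Ccl5. Of these 18 genes 9 were highest in L3, while Cxcr3 and Prf1, for example, were highest in W2 and Prf1 was lowest in L3 (3480). Eomes, the paralog of Tbx21, was also highest in L3 but lowest in W2. Ifng, the signature cytokine of type 1 responses, ran from 372 in L2 to 1717 in L3, with the order of W1 and L2 exchanged. The α/β T cell genes Cd8a (378 to 2825) and Trac (1622 to 3855) had the order of Ifng, while the T cell gene Cd3e moved only between 24602 and 27726. Of the 10 genes of the α/β T cell list 3 had that order and 0 the order of Tbx21, 6 were highest in L3 and 7 lowest in L2. Trbc1 was highest in W1 (3408) and lowest in W2 (2495), and Cd4 (755) was highest in W2. Over the 10 genes of the α/β T cell list the summed level was 12562 to 16433 in WT DETCs and 9622 and 19681 in L2 and L3. None of these α/β genes was called between the genotypes (limma, 0 at an unadjusted p under 0.05), and their part in the Tbx21 levels was not tested. Runx3 did not share this order, and its L2 and L3 values (10755 and 10969) were close. Cd3e did not stand for all T cell genes. Trdc, of the γ/δ T cell list, had 26887 and 23250 counts in L2 and L3 against 30304 to 39123 in WT DETCs. Trdv4, which the study named as lower, had 5387 and 4115 against 7750 to 11432. Of the 18 genes of that list 12 had a negative and 6 a positive difference. Limma called 1 lower, with 7 at an unadjusted p under 0.05, where 0.430% of tested genes were called lower.

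**Figure D4:**
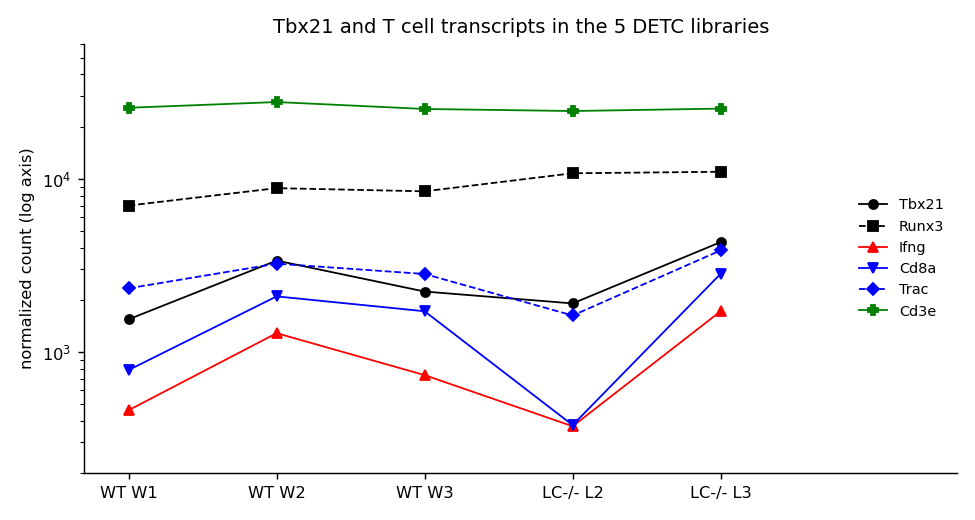
Normalized counts (log axis) of Tbx21, Runx3, Ifng, Cd8a, Trac and Cd3e in the 3 WT and 2 LC-/- DETC libraries, with lines joining the values of 1 gene across libraries. Tbx21, Ifng, Cd8a and Trac all peak in L3 (4304, 1717, 2825 and 3855), and all but Tbx21 are lowest in L2, whereas Cd3e stays between 24602 and 27726.

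Some genes around these factors did pass the test in LC-/- DETCs. Of the 18 partners 0 were called by limma (5 at an unadjusted p under 0.05) and by edgeR, while DESeq2 called Ctnnb1, which encodes β-catenin, and Runx2. Ctnnb1 had 7804 and 6591 counts against 5122 to 5564 (log2 difference 0.44, limma adjusted p = 0.0621), and Runx2 had 4847 and 5650 against 3261 to 4112 (0.51, limma adjusted p = 0.0649). Of the 28 other lineage factors 2 were called, both higher. Zeb1, a zinc finger repressor used in T cell development, rose from 2330 to 3533 counts in WT DETCs to 7972 and 6517 (log2 difference 1.27 ± 0.18, limma adjusted p = 0.0168). Egr3, induced by T cell receptor signals, was higher by 0.58, with 2662 and 2664 counts against 1760 to 1811. In KC libraries Egr3 had 4922 to 7365 counts and Ctnnb1 7477 to 8155, while Runx2 had 43.0 to 87.0 and Zeb1 0 to 3.46. The part of the keratinocyte share in the DETC values of Egr3 and Ctnnb1 was not tested. Of 9 tested genes of a dermal γ/δ T17 list, 1 was called lower, the chemokine receptor Ccr6, with 223 and 149 counts against 383 to 602 (log2 difference -1.30, limma adjusted p = 0.0327). That call was lost without any 1 of the 5 libraries (adjusted p from 0.0592 to 0.0818), with the keratinocyte share subtracted and without a mean-variance trend. With the share subtracted or without a trend, limma called 0 of all tested genes between the genotypes in DETCs. In the dermal γ/δ T17 list 7 of 9 differences were negative, 6 had an unadjusted p under 0.05, and the median was -0.88, against 0.0175 over all tested genes. The study named Il17a, Il17f, Blk and Sox13 of this list as lower in these samples, so the list is no independent evidence of a direction. Its summed level was 7083 to 8508 in WT DETCs and 6643 and 7362 in LC-/- DETCs, of which Cd163l1 made up 3289 to 3809 in each library.

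Of 18 type 1 and cytotoxic genes, Il12rb2, a receptor chain for IL-12, was higher (0.43) and Prf1, which encodes perforin, was lower (-0.65, 4056 and 3480 counts against 5743 to 6104). Of 12 TCF-1 program genes, Ccr7 was higher (0.90) and Il7r, the IL-7 receptor chain, was lower (-0.70, 1176 and 965 counts against 1654 to 1866). Of 11 type 2 genes, Areg, the epithelial growth factor amphiregulin, was higher (0.59, 29731 and 29740 counts against 18796 to 20232), and Il17rb (-1.41) and Ccr4 (-1.06) were lower. The median log2 difference was -0.05, -0.19 and -0.21 in these lists. The study picked Il17rb and Il7r from these samples, so they are no independent evidence of a direction. All 9 calls were kept by DESeq2 and edgeR and lost with the keratinocyte share subtracted (limma adjusted p from 0.108 to 0.430) and without a mean-variance trend (0.179 to 0.189). Under both settings limma called 0 of all tested genes in this comparison, so these losses are not particular to the 9. In KC libraries Zeb1, Prf1, Il7r and Ccr7 had at most 3.71 counts. Il17rb, Ccr4, Areg, Il12rb2 and Egr3 reached 109, 236, 485, 1629 and 7365 there. With 1 fit over all 11 libraries 4 of the 9 calls were kept, and Zeb1, Ccr7, Il12rb2, Il7r and Prf1 were lost (highest limma adjusted p = 0.401). With quantile normalization 6 were kept, and Areg, Ccr7 and Il12rb2 were lost (highest limma adjusted p = 0.266). Without L2, 2 of the 9 were called (highest adjusted p = 0.195), without L3, 4 (0.123), without W1, 7 (0.0955), without W2, 0 (0.145) and without W3, 1 (0.129).

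In KCs 1 of the 10 factors passed the test, Bcl11b, which was lower in LC-/- mice. All 3 LC-/- KC libraries (1481, 1401 and 1428 counts) lay below all 3 WT libraries (2361, 1964 and 2396). The log2 difference was -0.64 ± 0.09 (limma adjusted p = 0.0251), and 1.85% of tested genes were called lower and 5.37% higher in this comparison. DESeq2 and edgeR called it too (adjusted p = 2.39e-08 and 0.000583). It lost the limma call without W1 (adjusted p = 0.0916), W3 (0.0671), L1 (0.0864), L2 (0.0515) or L3 (0.0805) and kept it without W2 (0.0343). Zbtb16 was lower in every LC-/- KC library, 1344, 1802 and 1077 counts against 3218, 1875 and 3403. Its log2 difference of -0.99 ± 0.30 was not called by limma (adjusted p = 0.116) and was called by DESeq2 (0.0184) and edgeR (0.00597).

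Tcf7, low in KCs, had 225, 279 and 269 counts in LC-/- KCs and 191 to 206 in WT KCs (log2 difference 0.36, interval 0.11 to 0.61, limma adjusted p = 0.0966). Id2 had 230.3, 198 and 254 counts against 263 to 338 (-0.40, interval -0.74 to -0.06, limma adjusted p = 0.139), and Id3 had 2234, 2503 and 2372 against 1891 to 2200 (0.24, interval 0.05 to 0.43, limma adjusted p = 0.123). In these 5 factors the genotypes did not overlap in KCs, 2 higher and 3 lower, against 31.5% of all tested genes. Gata3 overlapped, at 6561, 6272 and 6817 counts against 5546 to 6740 (interval -0.10 to 0.31). Lef1, Tbx21, Runx3 and Eomes were at 16.5 counts or below in every KC library, and no genotype difference was detectable there at this depth.

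Other lineage factors called in KCs were Prdm1, which encodes BLIMP-1, higher by 0.83 (1601, 1548 and 1735 counts against 865 to 973), and Hes1, a Notch target, and Maf, lower by 0.51 and 0.40. Among TCF-1 program genes, Axin2, a feedback target of Wnt signaling, fell by 0.61 (559.7, 689 and 538 counts against 836 to 969), Bcl2 fell by 0.40, and Cd28 was higher by 1.41 at no more than 5.51 counts. Of the 18 partners 0 were called (limma, 1 at an unadjusted p under 0.05), while DESeq2 and edgeR each called Zbtb7b, lower. Over all 14419 tested genes, 2116 were higher and 1683 lower in KCs at such an unadjusted p (limma). Of 18 type 1 genes limma, DESeq2 and edgeR called 0 (0 at an unadjusted p under 0.05), and of 11 type 2 genes limma called 0 (1 at an unadjusted p under 0.05), while DESeq2 and edgeR called Ccr4. Of these 6 limma calls, Cd28 was lost with edgeR (adjusted p = 0.120) and without a filter (0.132), Bcl2 with either pseudocount and with size factors of the compared libraries (0.0501 to 0.0526), and Axin2, Bcl2 and Hes1 both without a mean-variance trend and after quantile normalization. Without W1, W2, L1 or L3 none of the 6 remained (highest adjusted p = 0.157, 0.137, 0.127 and 0.123), without W3 Prdm1 alone did (others up to 0.133), and without L2 Prdm1 and Axin2 did (others up to 0.0896).

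The genotype difference of Bcl11b differed between the populations. It was -0.64 in KCs and 0.34 in DETCs on the log2 scale, and the difference of these differences was 0.97 ± 0.15 (interaction term over 11 libraries, limma adjusted p = 0.0142), where 0.617% of tested genes were called higher and 0.180% lower. DESeq2 and edgeR called it too, and leaving out any 1 of the 11 libraries kept the call (adjusted p from 0.0134 to 0.0470). It was not called without a mean-variance trend (adjusted p = 0.0773). Pairing the libraries by label number also ended the call (limma adjusted p = 0.0692), though the labels do not state that pairing. Axin2 had the same arrangement, with 6027 and 6344 counts in LC-/- DETCs above 4594 to 4931 in WT DETCs, and an interaction of 1.01 ± 0.14 (limma adjusted p = 0.00969). Without a mean-variance trend the Axin2 interaction was not called either (0.0688), nor with the libraries paired by label number (limma adjusted p = 0.0663).

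Tcf7 was arranged the other way, above WT in all 3 LC-/- KC libraries and below WT in both LC-/- DETC libraries. Its interaction of -0.52 ± 0.13 was not called by limma (adjusted p = 0.115) or edgeR and was called by DESeq2 (0.0246) and with quantile normalization (-0.79, adjusted p = 0.0136). Among the remaining 8 factors no interaction was called by limma, edgeR or DESeq2, with 2 of them (Lef1 and Runx3) at an unadjusted p under 0.05. Over all 14419 tested genes, the interaction was higher in 1052 and lower in 582 at such an unadjusted p (limma). In KCs, Runx3, Tbx21 and Eomes were near 0, where the pseudocount of 1 limits how large a log2 difference can be. The KC part of the Runx3 interaction rests on 15 reads over the WT and 8 over the LC-/- libraries. No gene of the partner, other lineage factor, type 1 or type 2 lists was called by limma (5, 7, 1 and 2 at an unadjusted p under 0.05) or edgeR. DESeq2 called Maf and Il17rb among them.

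**Figure D5:**
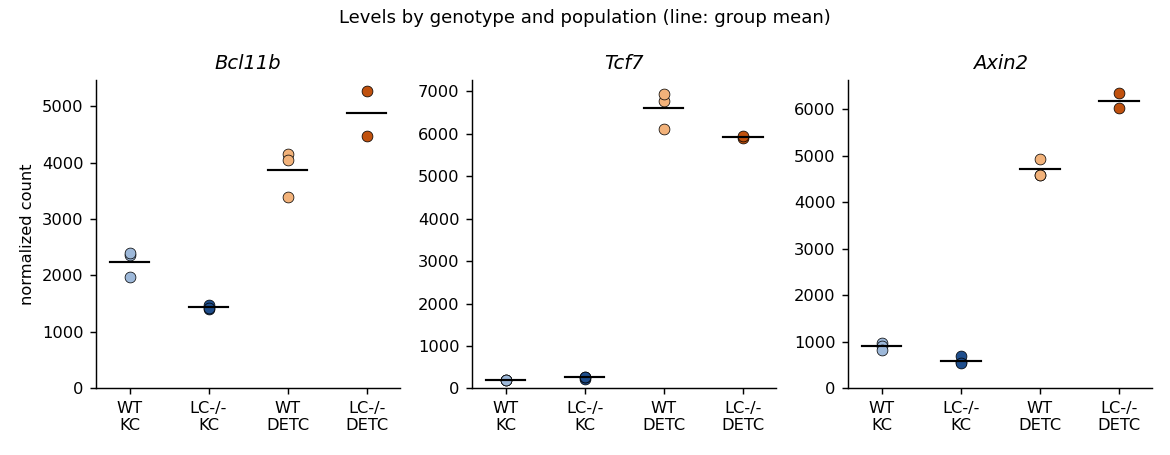
Normalized counts (vertical axes, starting at 0) of Bcl11b, Tcf7 and Axin2 in WT and LC-/- KCs and DETCs, with each point a library and each line a group mean. Bcl11b and Axin2 lie lower in LC-/- than in WT KCs (means of 1436 against 2241 for Bcl11b) and higher in LC-/- than in WT DETCs (4872 against 3863), while Tcf7 lies lower in LC-/- DETCs (5928 against 6614).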

How the data were processed

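Per the study's methods, the authors used cutadapt, hisat2 (GRCm38) and featureCounts to trim, align and count reads. The deposited values are a signal per gene, the counts divided by DESeq2 size factors. All values above 0 were whole multiples of a library step (tolerance 0.01 reads), so reads were recovered. GENCODE M21 matched 52403 of 52550 identifiers. For tests, 1 was added to each normalized count and log2 taken, and limma 3.58.1 (R 4.3.3, eBayes with trend) was fitted, Benjamini-Hochberg adjusted over 14419 genes with a CPM above 1 in at least 2 libraries, threshold 0.05. The filter rule and the genotype comparisons follow the study, which used DESeq2, but the number of genes left differs from the one it states. Recovered reads were also tested with DESeq2 1.42.0 and with edgeR 4.0.16. The main limma fit, DESeq2 and edgeR were run on simulated counts, but the other alternatives were not. Genes of low count were not among those changed in the simulation. The keratinocyte share of a DETC library is the median over 30 genes of its value over the mean KC value of the same genotype. The other alternatives were pseudocounts of 0.5 and 8, no filter, a mean of at least 10, size factors of the compared libraries, quantile normalization, 1 fit over all 11 libraries, no trend, a replicate block and omission of each library. Named genes were all 10 factors and, per list, called genes of largest difference (up to 4 per direction in DETCs, up to 2 elsewhere), or the 2 of lowest p. Orders of DETC libraries, Zbtb7b, Ccr6, Gzmb and Maf in the interaction were chosen after their values were seen. The factors and lists were chosen with earlier results of these data known. A gene was left out of the lists and is not reported here. Promoter sequences are RefSeq's. No counting interval covers more than counting error.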

Additional observations from a re-analysis of the deposited data

Results flagged for a closer look

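The genotype difference of Bcl11b in DETCs minus that in KCs was 0.971 on the log2 scale (interaction test, limma adjusted p = 0.0142). It was lower in 3 of 3 LC-/- KC libraries and higher in 2 of 2 LC-/- DETC libraries than in every WT library of the same population. The same difference was 1.01 for Axin2 (limma adjusted p = 0.00969), with the same arrangement of libraries. Neither was called without a mean-variance trend (0.0773 for Bcl11b and 0.0688 for Axin2). With libraries paired by label number, a pairing that the labels do not state, both calls were also lost (limma adjusted p = 0.0692 and 0.0663). These 2 were the only genes among the 10 factors and the 5 lists around them that limma called in this test. Groups of 2 or 3 libraries were too small to test single libraries for standing apart.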

How the results depend on the processing

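The 7 higher and 3 lower factors of WT DETCs against WT KCs were kept in every alternative except Lef1 with quantile normalization. In DETCs, the 514 genes called between genotypes became 1094 with DESeq2, 263 with quantile normalization, 959 with 1 fit over all libraries and 0 without a trend or with the keratinocyte share subtracted (before adjustment, 1145 higher and 1209 lower with a p under 0.05), and 35 to 590 with a library left out. DESeq2 called 1 factor higher and quantile normalization 1 lower. In KCs, 1042 calls became 1757 with DESeq2, 1783 with edgeR, 1617 without a filter, 1740 at a mean of at least 10, 633 with quantile normalization and 5 to 721 with a library left out. The 1 lower factor became 2 (Zbtb16 added) with DESeq2, edgeR, no filter and a mean of at least 10, 2 (Id2 added) with 1 higher (Tcf7) in 1 fit over all libraries, and 0 to 1 with a library left out. In the interaction, 115 calls became 310 with DESeq2, 22 without a trend, 341 with the share subtracted and 32 to 138 with a library left out. Higher factors were 0 without a trend and 1 to 2 with a library left out (Runx3 at 1.28, adjusted p = 0.0470, without W1 in KCs), and lower factors 1 with DESeq2 and with quantile normalization. In KCs the Runx3 values rest on 15 reads (WT) and 8 reads (LC-/-) in all. Higher genes made up 87.9% of DETC calls, and 67.7% with quantile normalization. In the interaction they made up 77.4%, 59.3% with quantile normalization and 42.2% with the share subtracted, and in WT DETCs against KCs 44.8% with the share subtracted.

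With the replicate block, the paired fit by label number, the interaction kept 18 genes and 0 factors (Bcl11b 0.99, adjusted p = 0.0692; Axin2 0.97, 0.0663), and WT DETCs against KCs kept the same 7 and 3. Whether the numbers pair the libraries is not given by the labels. Same-number correlations of deviations were -0.06, 0.07, 0.12, 0.16 and 0.13 in W1, W2, W3, L2 and L3, with 3 of 5 over 0.1, and 4 of 5 libraries correlated best with their own number, the exception being W1 (best with W2).

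Signs turned for values that were not called. In DETCs these were Id3 (-0.29, share subtracted), Gata3 (-0.13, quantile; -0.14, share subtracted; -0.0671 to 0.16 with a library left out), Tbx21 (-0.25 to 0.93 with a library left out) and Eomes (-0.26 to 0.78). In KCs they were Gata3 (-0.09, quantile) and Lef1 (-0.11 to 0.50 with a library left out). In the interaction they were Id3 (-0.53, share subtracted), Zbtb16 (-0.081 to 0.87 with a library left out) and Gata3 (-0.17 to 0.0575). The cause was not tested. Over the 10 factors, 675 alternative values kept direction and call, 11 gained a call, 8 lost one and 15 turned.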
